A study of Mus musculus with 4 samples.

Results

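CCGG sites of moderate local density, lying far from any dense cluster, were examined on the mouse autosomes. A site belonged to this set when it had 5 to 9 CCGG within 500 bp on either side, itself included, and no site with 10 or more CCGG in that window (a dense site) within 10000 bp. The positions alone chose the set, with no use of measured values, and it held 107065 of the 1594137 sites in the files (6.72%), or 69.0% of the 155081 autosomal sites with 5 to 9 CCGG. Whole tags in all 4 libraries were found at 102184 of these far moderate sites, on which the results rest, and the 4881 sites with a fractional tag in any library (4.56%, against 3.07% of all sites) are given apart. The nearest dense site was at a median distance of 81079 bp, with quartiles of 36167 and 179915 bp. Within 100 bp of the distance limit, 140 sites lay just beyond it and 137 others just inside it.

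The cells were MC1-ZE7, a feeder-free mouse embryonic stem cell line of strain 129S6/SvEvTac at passage 31, with the fluorescent protein Emerald under the Zscan4c promoter. Zscan4 genes are active in the 2-cell embryo and, at any moment, in few cells of an embryonic stem cell culture. Cells were sorted by fluorescence into an Emerald-high and an Emerald-negative fraction, called the high and the negative fraction in what follows, and DNA of each was cut with HpaII or with MspI, giving 1 library for each of the 4 combinations. All 4 share the line, so the reporter and the single culture history limit the comparison, and neither the sort nor the identity of the cells can be checked in DNA tags. Every test therefore compares libraries, not conditions, and every interval covers counting error only.

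HpaII cuts CCGG only where the central CG is unmethylated, whereas MspI cuts it in either state, so HpaII tags set against MspI tags follow the unmethylated share of a site. Most CG in the mouse genome is methylated, and dense CG clusters, called CpG islands, are the main exception, many of them at promoters. Clusters of intermediate density are known to be more mixed, some unmethylated at promoters and others methylated within genes or between them. Only CCGG positions were read here, so these clusters are moderate in CCGG, and their full CG density is known only for the promoters named below.

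Promoters that coincide with far moderate clusters show what such sequences look like. RefSeq promoter windows (GRCm38.p6) were matched to the files (mm9) by the exact spacing of at least 4 CCGG, with no conversion of coordinates: 4217 of 4373 windows had 1 match, and all but 1 of these lay on the same chromosome. The match used whole windows of 300 bases, of which the 250 bases before the gene start are printed 5′ to 3′ on the gene's strand, with each CCGG in capitals. At least 1 CCGG, which is its own reverse complement, was present in 52.8% of 32851 RefSeq promoter windows of 300 bases, and at least 4 in 13.3%. The first pair of sequences come from the clusters with the lowest scores in the negative fraction, that is, the fewest HpaII tags for their MspI tags, among the named promoters: Lcat at chr8:105943403-105943652 on the minus strand and Cdsn at chr17:35551878-35552127 on the plus strand.
Lcat: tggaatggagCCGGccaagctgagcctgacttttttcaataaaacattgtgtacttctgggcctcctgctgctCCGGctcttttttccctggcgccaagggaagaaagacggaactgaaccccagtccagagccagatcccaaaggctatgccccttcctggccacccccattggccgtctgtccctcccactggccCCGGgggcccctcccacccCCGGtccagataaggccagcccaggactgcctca
Cdsn: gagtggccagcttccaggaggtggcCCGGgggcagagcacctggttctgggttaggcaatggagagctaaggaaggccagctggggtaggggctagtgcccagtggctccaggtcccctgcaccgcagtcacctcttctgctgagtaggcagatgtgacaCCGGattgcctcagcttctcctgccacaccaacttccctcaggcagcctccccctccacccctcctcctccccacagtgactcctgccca
The next pair are from clusters with scores near the top: Exoc4 at chr6:33248878-33249127, plus strand, and Mrps16 at chr14:20393491-20393740, minus strand.
Exoc4: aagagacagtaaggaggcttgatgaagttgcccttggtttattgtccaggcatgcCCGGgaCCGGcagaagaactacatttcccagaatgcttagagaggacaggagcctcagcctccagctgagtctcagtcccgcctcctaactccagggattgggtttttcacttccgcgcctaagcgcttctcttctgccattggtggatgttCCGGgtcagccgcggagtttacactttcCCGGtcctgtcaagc
Mrps16: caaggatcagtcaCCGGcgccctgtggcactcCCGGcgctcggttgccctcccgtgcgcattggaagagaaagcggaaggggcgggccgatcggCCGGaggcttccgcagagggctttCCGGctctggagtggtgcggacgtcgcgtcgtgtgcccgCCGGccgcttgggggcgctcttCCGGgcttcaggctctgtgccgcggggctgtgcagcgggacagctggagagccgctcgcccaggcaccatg
The Ssbp1 window, at chr6:40471218-40471467 on the plus strand, and the Srsf7 window, at chr17:80207306-80207555 on the minus strand, lie in clusters whose relative HpaII cutting was called lower in the high fraction.
Ssbp1: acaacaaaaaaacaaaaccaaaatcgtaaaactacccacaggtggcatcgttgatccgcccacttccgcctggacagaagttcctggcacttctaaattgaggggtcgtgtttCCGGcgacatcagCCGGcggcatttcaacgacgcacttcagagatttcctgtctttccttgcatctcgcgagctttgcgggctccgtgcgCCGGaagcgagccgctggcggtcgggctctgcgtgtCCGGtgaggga
Srsf7: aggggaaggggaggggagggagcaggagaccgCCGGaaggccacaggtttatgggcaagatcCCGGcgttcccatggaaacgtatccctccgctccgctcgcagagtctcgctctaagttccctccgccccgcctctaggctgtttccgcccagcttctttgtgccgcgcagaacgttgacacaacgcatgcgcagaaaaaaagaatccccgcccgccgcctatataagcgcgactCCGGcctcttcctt
Hormad1, at chr3:95559427-95559676 on the plus strand, and Mael, at chr1:166238745-166238994 on the minus strand, are genes of the germ line.
Hormad1: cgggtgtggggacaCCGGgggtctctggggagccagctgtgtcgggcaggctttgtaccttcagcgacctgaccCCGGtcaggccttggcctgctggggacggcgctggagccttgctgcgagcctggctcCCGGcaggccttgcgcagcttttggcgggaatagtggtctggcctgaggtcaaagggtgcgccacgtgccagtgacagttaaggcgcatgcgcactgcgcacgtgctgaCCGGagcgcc
Mael: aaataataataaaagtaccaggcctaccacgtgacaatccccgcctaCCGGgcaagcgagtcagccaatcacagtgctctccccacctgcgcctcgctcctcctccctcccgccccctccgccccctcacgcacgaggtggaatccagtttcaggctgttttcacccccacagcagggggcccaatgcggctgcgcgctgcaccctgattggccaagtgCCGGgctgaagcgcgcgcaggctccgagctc

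Far moderate sites gave fewer HpaII tags and more MspI tags in the high than in the negative fraction, relative to library totals. Their summed tags were 562921 of 5662614 in the Emerald-high HpaII library and 1145874 of 9535691 in the Emerald-negative HpaII library. The MspI libraries held 451031 of 9372711 tags there in the high and 402308 of 9307616 in the negative fraction. The log2 difference (Emerald-high minus Emerald-negative) was -0.27 for HpaII and 0.15 for MspI, which gave -0.43 for HpaII/MspI (95% Poisson interval -0.44 to -0.42). The MspI term, which does not depend on methylation of the central CG, thus made up a part of the ratio's difference, and its source was not tested. The HpaII libraries had a tag at 54.7% (high) and 55.4% (negative) of far moderate sites, beside 55.7% and 53.7% of all sites. The MspI libraries had one at 58.6% and 57.7%, beside 69.5% of all sites in both. The direction rests on the scaling: set to the tags of dense sites instead of library totals, every log2 HpaII/MspI difference moves up by 0.72, and the value for far moderate sites became 0.29. Every negative HpaII/MspI value given below for a class of sites or of clusters is smaller than 0.72 in size and turns positive under that scaling, dense sites (-0.73) aside, while gaps between classes of sites do not move. Scores shift with the scaling too, so high and low scores are relative to library totals.

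Between the sparser and the denser classes, far moderate sites took an intermediate value. The log2 HpaII/MspI difference was 0.53 at autosomal sites with no second CCGG in the window and no dense site within 10000 bp, and 0.13 at such far sites with 2 to 4 CCGG. It was -0.73 at dense sites, which is 0.30 below far moderate sites (interval of the gap 0.29 to 0.31). Moderate sites within 10000 bp of a dense site, the nearest class, gave -0.50, and the gap of 0.07 from far moderate sites had an interval of 0.055 to 0.079. The counting intervals of far moderate sites overlapped none of these classes, at any of the 4 comparisons. In level, HpaII/MspI on scaled tags was 2.07 in the high and 2.78 in the negative fraction at far moderate sites, and 3.06 and 4.31 at moderate sites near a dense one.

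The gap between far and near moderate sites was concentrated at the lowest density. Among far moderate sites the log2 HpaII/MspI difference went from -0.30 at 5 CCGG through -0.42 at 6 and -0.52 at 7 to -0.58 at both 8 and 9. The change from 5 to 9 was -0.28 (interval -0.31 to -0.24), with HpaII tags changing by -0.21 and MspI tags by 0.07. At 5 CCGG, far sites were 0.08 above near sites (0.061 to 0.108). At 6, 7, 8 and 9 CCGG the gaps were -0.01, -0.02, -0.02 and 0.03, each with an interval that spans 0, the widest running from -0.014 to 0.067 at 9. In HpaII alone the gap was 0.079 at 5 CCGG. At 6, 7, 8 and 9 it was 0.019, -0.023, 0.003 and 0.023, of mixed sign, and only the interval at 8 spans 0. The set of far sites also held more of the low densities: 40934 of its 102184 sites had 5 CCGG and 5692 had 9, whereas near sites numbered 9262 at 5 and 11818 at 9.

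**Figure D1:**
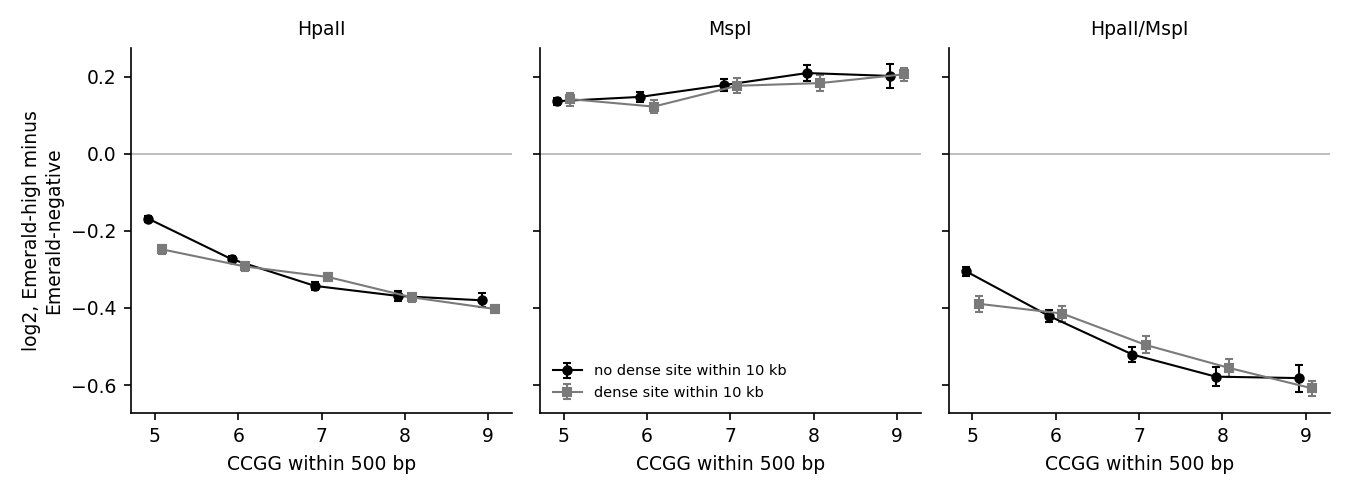
Log2 difference (Emerald-high minus Emerald-negative, scaled to library totals) of HpaII tags, MspI tags and HpaII/MspI against the number of CCGG within 500 bp, for moderate sites with no dense site within 10 kb (black circles) and with one (grey squares); bars are 95% Poisson intervals. The HpaII/MspI difference goes from -0.30 at 5 CCGG to -0.58 at 9 among far sites, and far and near sites part most at 5.

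With distance beyond 10000 bp the HpaII/MspI difference hardly moved, while the level went down. In the ranges 10000 to 20000, 20000 to 50000, 50000 to 100000, 100000 to 200000 and over 200000 bp from a dense site, the log2 HpaII/MspI difference was -0.44, -0.44, -0.42, -0.42 and -0.42. The farthest range was 0.02 above the nearest (interval -0.0065 to 0.0514). HpaII tags moved by 0.05 (0.035 to 0.070) and MspI tags by 0.03 (0.0075 to 0.0536) between these ranges, both upward, so the ratio moved less than HpaII alone. HpaII/MspI in the negative fraction was 2.92 in the nearest range and 2.51 in the farthest. MspI tags per site went down as well, so the farthest sites are the least well measured: 12.8% of sites in the nearest range had at least 10 tags in each MspI library, but 5.56% in the farthest.

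The difference had the same sign on every autosome. It averaged -0.43 ± 0.03 (SD over 19 autosomes of the same libraries), from -0.49 on chromosome 19 to -0.36 on chromosome 13. MspI tags were above 0 on all 19 autosomes, at 0.16 ± 0.02. Near moderate sites gave -0.50 ± 0.03, and far sites were above near sites on 18 of 19 autosomes, by 0.07 ± 0.04. Chromosome 17 was the exception, with a gap of -0.00033. Autosomes within a library are not replicates of a sort, so this spread describes how even the difference was along the genome.

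**Figure D2:**
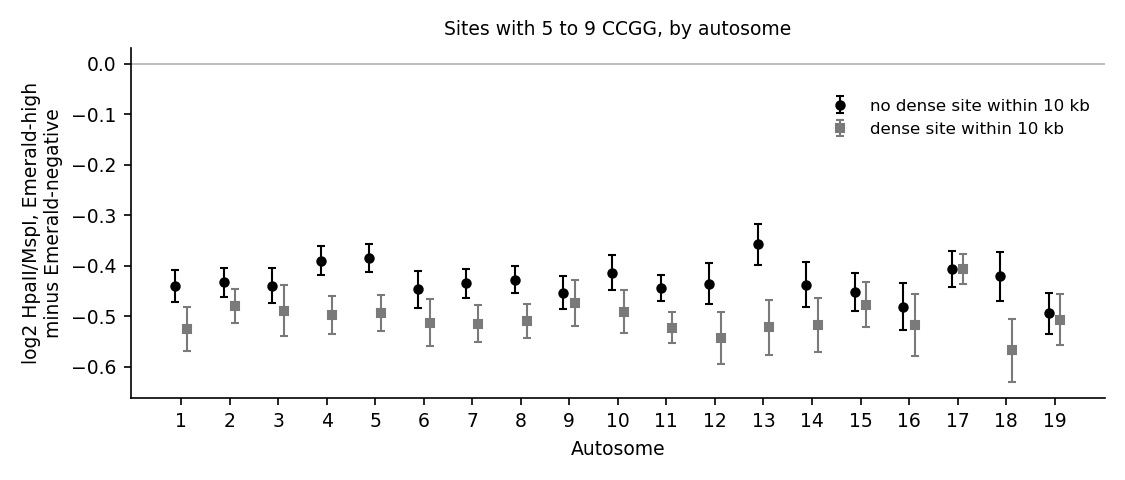
Log2 HpaII/MspI difference (Emerald-high minus Emerald-negative) by autosome for moderate sites with no dense site within 10 kb (black circles) and with one (grey squares); bars are 95% Poisson intervals. All 19 far values lie below 0, between -0.49 and -0.36, and on 18 autosomes above the near value.

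Single far moderate sites ranged over the whole scale of relative cutting, and the Emerald-high values were less extreme. Each site was given a score, 100 × (2/π) × arctan of HpaII/MspI on scaled tags, which is 0 with no HpaII tag, 50 with equal scaled tags and approaches 100 when HpaII tags prevail. At least 10 tags in each MspI library were found at 9544 sites (9.34%). That minimum kept sites rich in MspI tags, and 12.3% of sites with 5 CCGG but 5.02% of those with 9. The scores therefore describe the scored sites, not all far moderate sites. Over all of these, summed HpaII/MspI was 2.78 in the negative fraction, where equal tags give 1. The median score of the 9544 sites was 48.9 in the high (quartiles 17.1 and 77.9) and 44.4 in the negative fraction (9.26 and 81.9). Scores under 20 were held by 28.4% of the sites in the high and 36.3% in the negative fraction (exact binomial intervals 27.5% to 29.4% and 35.3% to 37.3%). Scores over 80 were held by 20.5% and 28.8% (19.7% to 21.4% and 27.9% to 29.7%), which left 51.0% and 34.9% in between. A score of 0 was found at 8.54% of the sites in the high and 11.5% in the negative fraction, although the Emerald-negative HpaII library was the deeper.

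Near moderate sites and dense sites were placed much higher on this scale. The median scores in the high and the negative fraction were 80.2 and 84.0 at moderate sites within 2000 bp of a dense site, and 80.8 and 85.2 at dense sites. Moderate sites 2000 to 10000 bp away gave 69.0 and 73.3. Far moderate sites with 5 CCGG had medians of 33.4 and 24.3, and near sites of that density 71.6 and 75.7. With 9 CCGG the medians were 79.1 and 83.7 at far and 80.5 and 85.1 at near sites. Far sites were thus lower at the same density, though close in median at 9 CCGG. There, 10.8% of far and 4.05% of near sites scored under 20 in the negative fraction. By distance, the medians went from 57.4 and 58.1 at 10000 to 20000 bp to 30.7 and 22.7 beyond 200000 bp. Neighbouring scored sites of a cluster, 2869 pairs at a median of 162 bp, had like scores, with a Spearman rho of 0.77 in the high and 0.80 in the negative fraction. The pairs share libraries and overlap in sequence, and the values are descriptions; both sites fell on the same side of 50 in 85.9% and 88.4% of pairs.

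Few single far moderate sites were called different between the libraries, at a depth where most had few tags. With Fisher's exact test on HpaII and MspI tags, its null set by library totals, and Benjamini-Hochberg adjustment over all 218697 sites tested, 5 of 9544 far moderate sites were called lower in the high fraction and 0 higher. A call needed an adjusted p under 0.05 and a 2-fold difference. Over all sites tested, 0.0297% were called lower and 0.102% higher, so both counts are small on a small background. At an unadjusted p under 0.05, 263 far moderate sites were lower (2.76%) and 312 higher (3.27%), against 0.892% and 7.77% of all sites tested. The largest of the 5 by tags lies at position 108873080 of chromosome 11 (mm9), with 1263 HpaII tags in the high and 3451 in the negative fraction and 740 and 388 MspI tags. The others lie at 5860701 on chromosome 3, 13255910 on chromosome 12, 110254504 on chromosome 14 and 24306705 on chromosome 17. At all 5 the MspI tags were also higher in the high fraction, for example 83 against 34 at the chromosome 3 site, where HpaII gave 174 and 726; the part of this in the calls was not tested. Scaled to dense sites, 1 far moderate site was called lower and 168 higher, and with tags divided by an overdispersion of 1.41, taken from the MspI libraries, 2 were called lower.

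Runs of sites were then summed into clusters, since neighbouring sites had like scores and single sites few tags. A cluster was a run of sites with 5 or more CCGG in the window, each no more than 500 bp from the next. Far moderate sites formed 21590 clusters with a median of 5 sites and a span of 389 bp, the longest 113 sites over 15817 bp, and 2945 clusters consisted of 1 site. A further 409 of the sites stood in 124 runs mixed with other sites and were left out of cluster counts. Of the 19295 clusters with whole tags alone, 7240 (37.5%) had at least 20 tags in each MspI library and were tested. The summed tags of untested clusters gave a log2 HpaII/MspI difference of -0.49, beside -0.41 for tested ones.

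Cluster scores had a mode at high values and a smaller one at low values, and scores in both lay nearer the middle in the high fraction. In Emerald-negative cells 50.0% of tested far clusters scored over 80, 21.9% under 20 and 28.0% in between. In Emerald-high cells the shares were 36.2%, 16.4% and 47.4%. The bin from 0 to 10 held 988 clusters in the negative and 507 in the high fraction, and the bin from 90 to 100 held 660 and 13. The bin from 70 to 80 held 483 and 1268, and that from 80 to 90 held 2962 and 2608. The median score was 80.03 in the negative and 74.1 in the high fraction. Clusters that hold a dense site were nearly uniform in the negative fraction, with 97.9% over 80 and 0.517% under 20. The low mode thus belonged mostly to moderate clusters, and it held 11.7% of the 1398 tested moderate clusters near a dense site. The lower share over 80 in the high fraction was not particular to far clusters. That share was 76.8% in the high fraction at clusters that hold a dense site. At moderate clusters near one it was 60.7% in the negative and 39.6% in the high fraction.

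**Figure D3:**
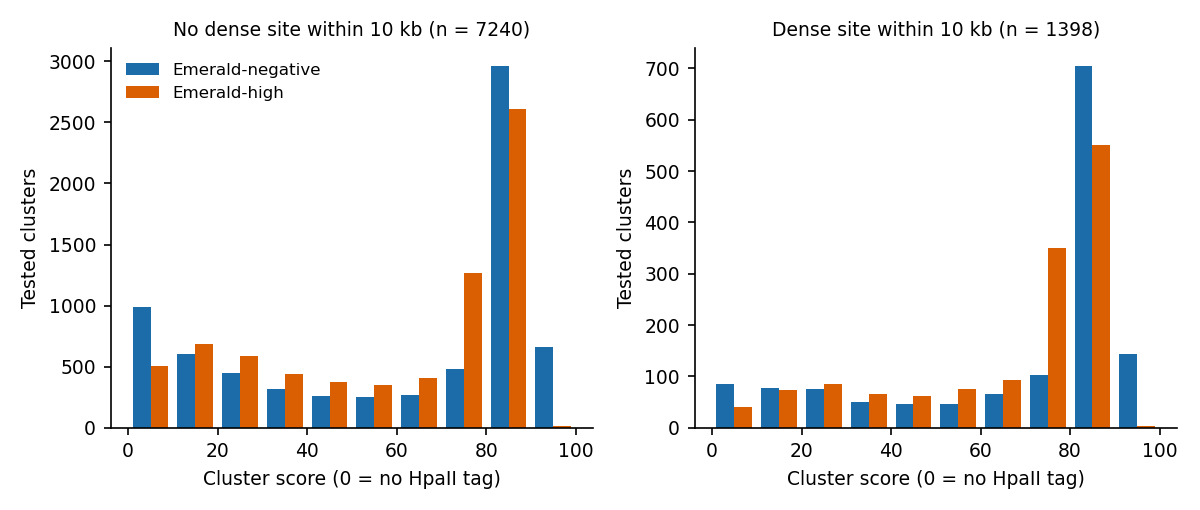
Number of tested clusters by score (bins of 10; 0 means no HpaII tag) in Emerald-negative (blue) and Emerald-high (orange) cells, for moderate clusters with no dense site within 10 kb (left) and with one (right). On the left, the bin from 0 to 10 holds 988 clusters in the negative and 507 in the high fraction, and the bin from 90 to 100 holds 660 and 13.

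Far clusters were called in both directions, and which direction prevailed depended on the tag minimum. The same exact test, adjusted over all 17010 tested clusters, called 362 far clusters lower (5%) and 111 higher (1.53%) in the high fraction. Over all tested clusters, 8.84% were called lower and 1.02% higher. The median log2 HpaII/MspI difference was -0.25 over far clusters and -0.46 over all tested clusters. With at least 40 tags in each MspI library instead of 20, 56 of 2546 far clusters were called lower (2.20%) and 87 higher (3.42%), against 7.23% and 1.61% of all clusters tested there. At that depth stood 55 of the 362 lower and 65 of the 111 higher calls of the lower minimum. With the negative fraction's HpaII library thinned to the depth of the high fraction's, 71 were called higher. Scaled to dense sites, 0 were called lower and 321 higher; with tags divided by 1.77, the overdispersion of clusters between the MspI libraries, 8 were called lower and 1 higher.

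Clusters with the largest called rises had little or no HpaII signal in the negative fraction, which a ranking by fold favours. Only clusters with MspI libraries within 0.5 of each other (log2) are named. The cluster at chr11:99198821-99199131 (3 sites) had 10 HpaII tags in the high and 0 in the negative fraction, with 29 and 30 MspI tags. Set against a floor of 3 tags in the Emerald-negative library, its scaled HpaII tags were 5.61-fold higher (adjusted p = 0.0032, Fisher's exact test). Such a fold takes the Emerald-high tags as exact, so it is not a lower bound. Clusters with 0 Emerald-negative HpaII tags also lay at chr2:106617412-106618391 (4.49-fold over the same floor), chr8:126817820-126817868 (3.93-fold) and chr11:113226041-113226503 (5.05-fold). The others lay at chr11:77290913-77291249 (3.37-fold), chr1:168029102-168029717 (3.93-fold) and chr6:127692202-127692424 (3.37-fold). These folds rest on 6 to 9 Emerald-high HpaII tags per cluster. At chr8:90759080-90759478 there were 11 tags against 1, a ratio of 18.5 on scaled tags with a counting interval of 2.69 to 797. Their Emerald-high scores ran from 9.16 to 33.0, so all 8 stayed in the lower part of the scale in both fractions.

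The largest called falls started from high scores. The selection favours this too, since a called fall needs many HpaII tags in the negative fraction. At chr4:136498782-136498982 (5 sites) HpaII gave 11 tags in the high and 61 in the negative fraction, beside 24 and 21 MspI tags, a log2 HpaII/MspI difference of -1.79 ± 0.62 (counting SE) and an adjusted p of 0.026 by Fisher's exact test. Its score was 41.3 in the high and 78.4 in the negative fraction. The next lay at chr19:8738412-8738898 (-1.67), chr13:52807099-52807400 (-1.61), chr9:107546825-107547392 (-1.51), chr8:113262054-113263347 (-1.48), chr19:5503551-5504078 (-1.41), chr5:148563254-148563513 (-1.38) and chr11:3166214-3166669 (-1.38). In all 8 the MspI tags were above 0 in log2 difference, from 0.15 to 0.48. None of the named rises or falls kept its call with the overdispersion of 1.77, and none of the falls did when scaled to dense sites.

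Further far clusters were named for having the most MspI tags or the most sites. The rises and falls above were chosen for their size, so the lists say nothing on how the difference goes with depth. At chr11:108872778-108873195 (7 sites), which held the most MspI tags, HpaII gave 8049 and 16829 tags in the high and the negative fraction and MspI 3983 and 3378, a difference of -0.54 ± 0.04 (counting SE, exact test with adjusted p = 7.03e-40) that stayed under 2-fold. The site at position 108873080, called lower above, lies within this uncalled cluster. Far moderate sites averaged 4.41 MspI tags per site in the high and 3.94 in the negative fraction, far below this cluster. The next most MspI tags among the named clusters, 253 in the high and 226 in the negative fraction, came from 35 sites. The source of this excess was not tested, and the small adjusted p rests on those tags. The cluster at chr11:84335439-84339933, the one with the most sites among whole-tag clusters (35), gave -0.32 ± 0.15 and was not called. Those at chr4:135049977-135052123 (-0.36), chr5:120120016-120122971 (-0.42) and chr9:99769298-99772429 (-0.42) were not called either. A 16-site cluster on chromosome 18, also among the 4 with most MspI tags, differed from these: its HpaII tags were 26 and 15 and its MspI tags 161 and 140, with scores of 16.6 and 6.63 and a called rise of 1.32 ± 0.48 (exact test, adjusted p = 0.038).

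Relative to library totals, the direction of the HpaII difference followed the starting level. To keep counting error out of the sorting, the 2 parts into which the files divide each site's tags were kept separate: a score in the negative fraction from either part placed the site in a stratum, and tags of the part not used for that gave its difference. Far moderate sites scoring under 20 (10726 site parts) had a log2 HpaII difference of 0.60 (interval 0.56 to 0.64), those from 20 to 80 -0.19, and those over 80 -0.31 (-0.33 to -0.30). The MspI differences of the lowest and highest strata were 0.11 and 0.17, so the gap of 0.92 between them in HpaII (0.87 to 0.96) was not matched in MspI. Near moderate sites gave a gap of 0.82 (0.72 to 0.91). Sorted again on scores scaled to dense sites, only 1 site part of the far sites scored over 80, with 4 and 3 HpaII tags. Strata re-sorted in this way could not be compared. In the strata as first sorted, the log2 HpaII/MspI difference was 0.50 under 20 and -0.48 over 80. Scaling to dense sites leaves their gap unchanged but moves both up by about 0.72, so the value over 80 turns positive. Relative to library totals, the summed difference of far moderate sites thus joins unlike groups. Rarely cut sites had a higher HpaII share in the high fraction, and highly cut sites, with more tags, a lower one.

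Clusters at promoters stood almost wholly in the highly cut mode. A RefSeq promoter window was matched to 605 whole-tag far clusters, of which 453, with 488 genes, were tested. Their median score was 82.6 in the high and 88.4 in the negative fraction, where 433 (95.6%, exact interval 93.3% to 97.3%) scored over 80 and 2 (0.44%) under 20. Among the 6787 tested far clusters with no matched promoter, 47.0% scored over 80 (45.8% to 48.2%) and 23.4% under 20. A cluster without a match may still hold a promoter, since windows with fewer than 4 CCGG were not matched, and the matched windows are denser in CCGG by that choice; density was not equalised between these groups. Promoter clusters near a dense site (50 tested) and those that hold one (2387) had Emerald-negative medians of 87.7 and 89.0, close to the far ones. Of the far promoter clusters, 48 (10.6%) were called lower and 0 higher, and of the others 314 (4.63%) and 111, beside 8.84% and 1.02% of all tested clusters. The share called lower was 14.0% at promoter clusters near a dense site and 15.5% at those that hold one, with 0 called higher in either. The summed log2 HpaII/MspI difference was -0.58 at far promoter clusters (-0.61 to -0.55) and -0.42 at the others (-0.43 to -0.41).

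**Figure D4:**
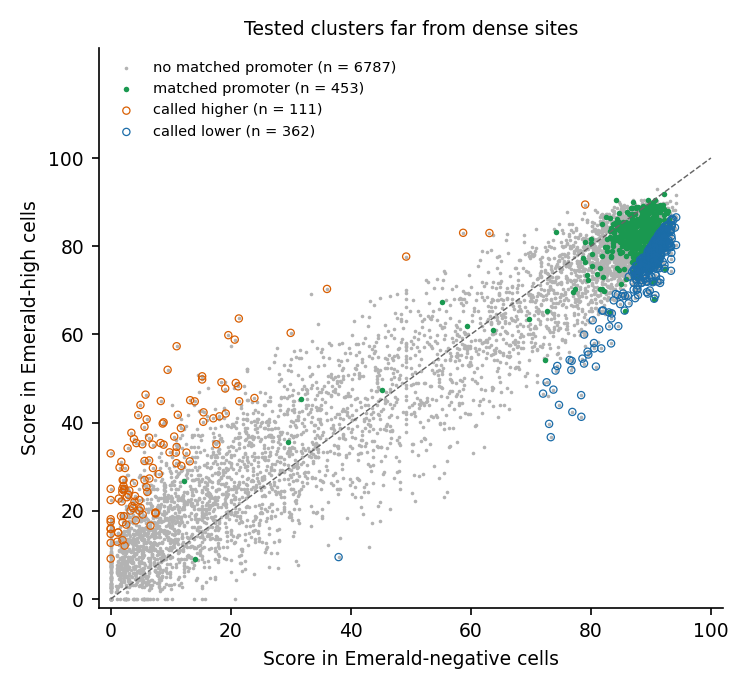
Score of each tested far cluster in Emerald-negative (x axis) and Emerald-high cells (y axis), with clusters at a matched promoter in green, called clusters ringed (orange higher, blue lower) and the line of equal scores dashed. Promoter clusters gather over 80 on the x axis (433 of 453), the 111 called higher lie above the line mostly at low scores and the 362 called lower below it mostly at high scores.

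The few far promoter clusters with low scores were chosen by that score and are described without a test. The Lcat promoter, of the enzyme that esterifies cholesterol in plasma lipoproteins, lies in a cluster at chr8:108466915-108467540 (mm9) with 20 HpaII and 74 MspI tags in the high and 14 and 70 in the negative fraction (scores 26.8 and 12.3). Cdsn encodes corneodesmosin, an adhesion protein of the outer epidermis, and its cluster at chr17:35688656-35689214 gave 3 and 35 tags in the high and 8 and 35 in the negative fraction (scores 8.97 and 14.0). These were the only 2 scoring under 20 in the negative fraction. Lep, the gene of the fat-cell hormone leptin, followed with scores of 45.2 and 31.8, from 13 and 19 HpaII and 25 and 34 MspI tags. Its log2 difference was 0.24 in HpaII and -0.44 in MspI. Rpl39l, a ribosomal protein gene related to Rpl39, scored 67.4 and 55.1 with 86 and 94 HpaII tags, so that Lcat, Lep and Rpl39l were higher in the high fraction and Cdsn lower, none of them called. Cda (cytidine deaminase) and Abcc9 (a subunit of a potassium channel) scored 61.9 and 61.1 in the high and 59.4 and 63.7 in the negative fraction.

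The 2 promoter windows in clusters scoring under 20 held few CG for their composition. In the 300-base windows the ratio of observed to expected CG had a median of 0.21 at the 2 clusters scoring under 20 in the negative fraction, 0.60 at the 18 from 20 to 80 and 0.82 at the 433 over 80 (quartiles 0.70 and 0.92). The GC content was much the same, at 62.2%, 64.0% and 64.7%, and the median number of CCGG was 4 in each group. The 300-base windows of Lcat and Cdsn, which run past the printed stretch, have ratios of 0.25 and 0.17, those of Ssbp1, Srsf7 and Mrps16 1.11, 0.95 and 0.92, and Exoc4 0.55, the lowest of these 4. Single windows departed from the order of the groups. Pck2 had a ratio of 0.40 at an Emerald-negative score of 90.1, and Rpl39l 0.84 at 55.1. Only 2 clusters make up the lowest group, so the order is a description.

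The highest-scoring named promoter clusters, likewise chosen by that score, are also described without a test of the level. Exoc4, a subunit of the exocyst that tethers secretory vesicles, had 92 HpaII and 35 MspI tags in the high and 253 and 29 in the negative fraction (scores 85.6 and 92.6). Mrps16, of the small subunit of the mitochondrial ribosome, had 110 and 35 against 242 and 28 (87.9 and 92.5). Nudt14 (a nudix hydrolase), Gtpbp4 (a GTPase of ribosome assembly), Prmt2 (a protein arginine methyltransferase) and Wdr37 completed the 6 highest, at 92.6 to 93.1 in the negative fraction. Gtpbp4 and Wdr37 were called lower, at -1.08 and -1.19, where their MspI tags also differed by 0.75 and 1.05 (log2).

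Called falls at promoters were found in genes of varied function. Ssbp1, the single-strand DNA-binding protein of mitochondria, had 28 HpaII and 28 MspI tags in the high and 107 and 24 in the negative fraction, a log2 HpaII/MspI difference of -1.35 ± 0.50 (counting SE), adjusted p = 0.036 by the exact test. Srsf7, a splicing factor, had 167 and 97 against 440 and 71, or -1.08 ± 0.26 (exact test, adjusted p = 0.0014). Crot (peroxisomal carnitine transfer, -1.21), Pck2 (mitochondrial phosphoenolpyruvate carboxykinase, -1.21), Tppp (a tubulin-binding protein, -1.14) and Mocs2 (molybdenum cofactor synthesis, -1.03) made up the rest of the 6 largest with MspI libraries within 0.5. Their scores in the high fraction, from 65.4 to 79.7, still lay well above the middle of the scale. None of these 6 calls held with the overdispersion of 1.77 or when scaled to dense sites.

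Small gene groups within the far promoters are read against the 95.6% of all tested far promoter clusters that scored over 80 in the negative fraction. All 8 tested clusters of zinc finger genes (Zfp symbols, which include the antisense gene Zfp286os) scored over 80 in the negative fraction, from 80.1 to 91.2, and 1 was called lower. The 5 mitochondrial ribosomal protein genes (Mrpl22, Mrpl27, Mrps16, Mrps23, Mrps27) scored from 85.9 to 92.5 with none called. Of the 2 ribosomal protein clusters, Rpl39l and Rps27l, the scores were 55.1 and 91.5. Psmg1, a proteasome assembly factor, was called lower, as was the helicase gene Ddx1 but not Ddx54, while Ndufs3 of respiratory complex I and the RNA polymerase subunits Polr2c and Polr2e scored over 80 and were not called. From a list of 55 germ-line genes, whose promoters are often methylated outside the germ line, 3 were matched and 2 tested. Hormad1, a protein of the meiotic chromosome axis, had 75 HpaII and 80 MspI tags in the high and 111 and 56 in the negative fraction (scores 63.6 and 69.6). Mael, which acts in transposon silencing in germ cells, had 45 and 30 against 86 and 27 (75.6 and 80.2). Neither was called, both at a log2 HpaII/MspI difference of -0.30 with SE of 0.33 and 0.46. Its parts differed: scaled HpaII tags were higher in the high fraction at Hormad1 (log2 0.19, beside 0.50 for MspI). At Mael they were lower (-0.17, beside 0.14 for MspI).

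A part of the far moderate sites stood in spacings that recur across the genome and gave hardly any tags. Sites were grouped by the 4 successive distances in runs of 5 CCGG. Of 25615 such patterns, 959 occurred in 2 or more clusters and 136 in 10 or more, and the last kind covered 21546 sites (20.1%). The most frequent, with distances of 45, 156, 52 and 156 bp, occurred in 699 clusters on all 19 autosomes, the next, 52, 156, 52 and 156 bp, in 508, and the third, 111, 33, 26 and 299 bp, in 496. No repeat annotation was used, so the patterns are not assigned to any family of repeats. The sources used here do not say how the authors treated tags that match several places.

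Tag yield separated these patterns sharply. No tag in either MspI library was found at 95.5% of whole-tag sites in patterns shared by 10 or more clusters and at 81.4% of those shared by 2 to 9. The share was 18.6% where the pattern occurred in 1 cluster only. Fractional tags were most frequent in patterns shared by 2 to 9 clusters, at 17.6% of sites, beside 0.73% in those shared by 10 or more and 4.26% in unique ones. The few tags of the most shared patterns gave an HpaII/MspI difference of -0.23 (-0.31 to -0.15), with a HpaII difference of -0.02 whose interval spans 0. Unique patterns, 58.2% of the sites, gave -0.46 (-0.47 to -0.45) and a HpaII/MspI level of 3.22 in the negative fraction, above the 2.78 of all far moderate sites. The third pattern had 0 tags in all 4 libraries at its 2478 whole-tag sites.

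**Figure D5:**
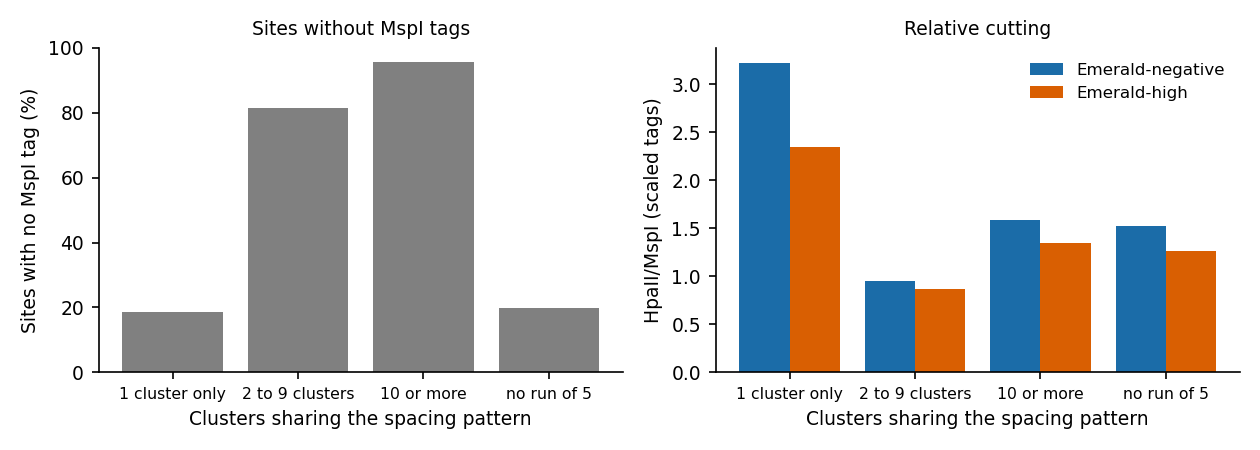
Left, share of far moderate sites with no tag in either MspI library, by how many clusters share their spacing pattern; right, HpaII/MspI on scaled tags in Emerald-negative (blue) and Emerald-high (orange) cells for the same groups, with 1 library per bar and no replicate error. Sites in patterns shared by 10 or more clusters have no MspI tag in 95.5% of cases, and unique patterns have the highest level, 3.22 in the negative fraction.

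The sites with fractional tags, given apart, showed a slightly smaller pooled difference at a lower level. Their log2 HpaII/MspI difference was -0.38 (-0.41 to -0.36), with -0.25 in HpaII and 0.13 in MspI. It lay 0.047 above that of whole-tag far sites (interval of the gap 0.022 to 0.072). HpaII/MspI in the negative fraction was 2.00. Among 1208 scored ones the median score was 30.0 in the high and 21.9 in the negative fraction. On rounded tags, 14 of them were called lower (1.16%) and 3 higher (0.248%), against 0.0297% and 0.102% of all sites tested. Of 1143 tested clusters with fractional tags, 31 were called lower and 31 higher (2.71% each), against 8.84% and 1.02% of all clusters.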

How the data were processed

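The authors deposited estimated counts of tags per CCGG position, in 2 parts and their sum, from HELP tagging libraries on mm9 (build per the submitters' processing notes). The sum was used; no aligner is given in the sources used here. Library totals were 5662614, 9372711, 9535691 and 9307616 tags (Emerald-high HpaII and MspI, Emerald-negative HpaII and MspI). With 1 library per group, intervals are Poisson or exact binomial (95%) and cover counting error of PCR-amplified tags only. Sites needed 10 and clusters 20 tags in each MspI library, and site parts sorted into strata 10 MspI tags of both fractions together. Fractional tags were rounded for Fisher's exact test (noncentral, null odds ratio from library totals). Benjamini-Hochberg adjustment ran over all sites or clusters, and the fold had a pseudocount of 1. Scripts (Python 3.11.15, scipy 1.17.1) were tested on simulated data.

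The members and lists were chosen with earlier results of these data known. Named clusters are up to 8 called per direction with the largest change and MspI within 0.5 (log2), the 4 with most MspI tags, the 3 with most sites and the 3 most shared patterns. The promoter match, the 6 lowest and 6 highest promoter scores, the 6 largest called falls (symbols of predicted genes left out) and the gene groups were added after the files were seen, and go beyond the first plan, which named no genes without an annotation of the files' build. How overdispersion is measured was also revised after results were seen. Alternatives changed the scaling, library, tag minimum, fractional sites, density, distance, pseudocount, joining distance, depth (thinning), tag columns and overdispersion.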

Additional observations from a re-analysis of the deposited data

How the results depend on the processing

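No paired analysis was possible because each group had 1 library. The pooled log2 difference of far moderate sites (-0.43) stayed within its counting interval under 6 of 12 alternatives; it was 0.29 scaled to dense sites, the reversal following from that scaling's shift of 0.72, -0.27 with the HpaII libraries alone, -0.44 when the 0.1% of sites richest in MspI tags were left out, -0.35 at 5 to 6 CCGG, -0.55 at 7 to 9 and -0.25 as the median over clusters. Without the cluster with most tags, an alternative added after seeing the data, it was -0.43. The gap from near moderate sites (0.07) was 0.080, 0.050 and 0.0085 without the most tagged sites, at 5 to 6 and at 7 to 9 CCGG. The share of sites scoring under 20 (-7.86 points, Emerald-high minus Emerald-negative) was -4.15 points at 7 to 9 CCGG, -5.35 with at least 5 MspI tags and -11.0 with at least 20. Site calls (0 higher, 5 lower) became 168 and 1 scaled to dense sites, 3 and 19 with fractional tags and 6 higher with at least 20 tags; lower calls were 10 at the adjusted p alone and 2 with the overdispersion. Cluster calls (111 higher, 362 lower) became 321 and 0 scaled to dense sites, 71 higher with the Emerald-negative HpaII library thinned, 56 lower and 87 higher with at least 40 tags, where 2546 far clusters were tested instead of 7240 and higher calls outnumbered lower ones, and 1 and 8 with the overdispersion of 1.77. That overdispersion was measured over clusters chosen by the sum of both MspI libraries, a revision made after results were seen; over clusters with 20 tags in each library it was 1.59, with 4 higher and 33 lower. For sites the first measure gave 0.80, below 1, and the revised one 1.41. The gap between rarely and highly cut sites (0.92) was 0.83 with fractional tags and 0.87 sorted by the Emerald-high score. It was 0.98 or 0.85 with either tag column sorting. Sorted again on scores scaled to dense sites it was -0.95, from 1 site part over 80 with 4 and 3 HpaII tags. Where no construction is named, the cause was not tested. Thinning left 4 of 8 named rises and 12 of 14 named falls called.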

Other observations

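On the X chromosome, which the set leaves out, 6323 whole-tag sites met the same limits of density and distance. Their summed tags were 10330 and 20684 for HpaII and 8495 and 7603 for MspI (Emerald-high and Emerald-negative), a log2 HpaII/MspI difference of -0.40 (-0.46 to -0.34), with -0.25 in HpaII and 0.15 in MspI. HpaII/MspI on scaled tags was 2.01 in the high and 2.66 in the negative fraction. Only 70 of these sites had at least 10 tags in each MspI library, with median scores of 29.3 and 22.9.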
